A study of Mus musculus with 20 samples.

Results

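Transcripts of the nuclear genes for the mitochondrial respiratory chain and ATP synthase were followed in whole kidney of mice given puberulic acid. Members were the rows of the gene table whose symbol begins with Nduf, Uqcr, Cox4, Cox5, Cox6, Cox7, Cox8 or Atp5, or is Sdha, Sdhb, Sdhc, Sdhd or Cyc1. The 9 rows marked as pseudogenes were left out, which gave 99 of 55822 genes. Older symbols are used as the symbol table gives them (Atp5a1 for the alpha subunit of ATP synthase, Atp5b for beta). All animals were males of the inbred strain C57BL/6J, aged 8 weeks. Controls received phosphate-buffered saline and the compared group received puberulic acid, a tropolone made by some Penicillium moulds, at 1 mg per day, with 5 mice in each group. Both groups had 6 once-daily administrations and the kidneys were taken on day 7 after 1 day without dosing. The labels name the oral route in one field and gavage or intraperitoneal injection in another, so no single route can be given. Mice given a normal or a toxic lot of the supplement Choleste-Help are not analysed here, since the names of their 10 columns do not show the lot.

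The respiratory chain sits in the inner mitochondrial membrane. Complex I takes electrons from NADH and complex II from succinate, ubiquinone carries them to complex III, cytochrome c carries them to complex IV, and complex IV passes them to oxygen. Complexes I, III and IV pump protons, and complex V (ATP synthase) uses the proton gradient to make ATP. The subunits come from nuclear and mitochondrial genes, except in complex II, whose subunits are all nuclear. Catalytic core subunits carry the redox centres, the quinone sites or the rotary motor, accessory subunits stabilize them, and assembly factors help to build a complex without staying in it. In the kidney the proximal tubule, which reabsorbs most of the filtrate, is rich in mitochondria.

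The libraries held 18409877 to 24705587 estimated counts. Levels are given as CPM, the counts scaled to a common library total, on library sizes corrected by the trimmed mean of M-values method (TMM). CPM is not divided by transcript length, so levels of different genes are not set against each other. The test was edgeR's quasi-likelihood test, adjusted by Benjamini and Hochberg's method over all 16266 genes tested, and a gene was called at an adjusted p under 0.05. Markers of kidney cell types also differed in level between the groups. The summed CPM of 12 proximal tubule markers ran from 14750 to 20080 in control kidneys and from 918.9 to 2692 in treated ones, and 11 of the 12 fell (median log2 fold change -3.43), with Slc13a1 at -0.63 not called. Of 10 leukocyte markers 7 were tested and 4 rose (median 1.92), beside 34.2% of all genes tested that were called higher. Adgre1, Csf1r and Cd3e were not called. The summed CPM of the 10 ran from 74.82 to 171.2 in control kidneys and from 142.2 to 449.4 in treated ones, so the ranges overlapped. In whole tissue, fewer cells of a type and less RNA per cell cannot be told apart, and the part of cell composition in the values below was not tested.

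Of the 99 genes 92 passed the filter on low counts, and 85 of these 92 were lower with puberulic acid. Among all genes tested, 31.1% were called lower and 34.2% higher. None of the 92 was called higher by edgeR's quasi-likelihood test or by DESeq2, and 0 were higher at an unadjusted p under 0.05 in edgeR. The ranges of the 5 control and 5 puberulic acid kidneys did not overlap for 82 of the 85, beside 24.0% of all genes tested that were lower without overlap. The median log2 fold change was -0.87, or 54.6% of the control level, and that of all genes tested was 0.05. The fall was at least 2-fold in 24 genes, beside 13.6% of all genes tested that were called lower by at least 2-fold. Scaled by total counts without TMM factors, 67 were lower, and Cox6a2, Cox6b2, Cox7a2l and Ndufaf5 were higher. That scaling moved the median of all genes to 0.56 and that of the members to -0.37. A change of scaling shifts all genes nearly alike, so the members lay 0.92 below all genes under both scalings. The equal gap is therefore no separate evidence for the fall. Over all genes the calls were 5058 lower and 5564 higher with TMM, and 2526 lower and 9179 higher with total counts.

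Without any scaling factor, the 99 genes together took 2.48% ± 0.214 of all counts in controls and 1.79% ± 0.123 with puberulic acid (SD, n = 5 each). In control replicates 1 to 5 the share was 2.13%, 2.57%, 2.71%, 2.51% and 2.47%. With puberulic acid it was 2.00%, 1.70%, 1.79%, 1.72% and 1.73%, so that every treated kidney lay below every control. Control replicate 1 was the lowest control and puberulic acid replicate 1 the highest treated kidney. The same 2 kidneys were at these ends for the proximal tubule markers, at 14750 CPM among controls and 2692 CPM among treated kidneys, where the next treated kidney had 1266 CPM. Without puberulic acid replicate 1 the median of the members was -0.94 and 85 were lower.

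**Figure D1:**
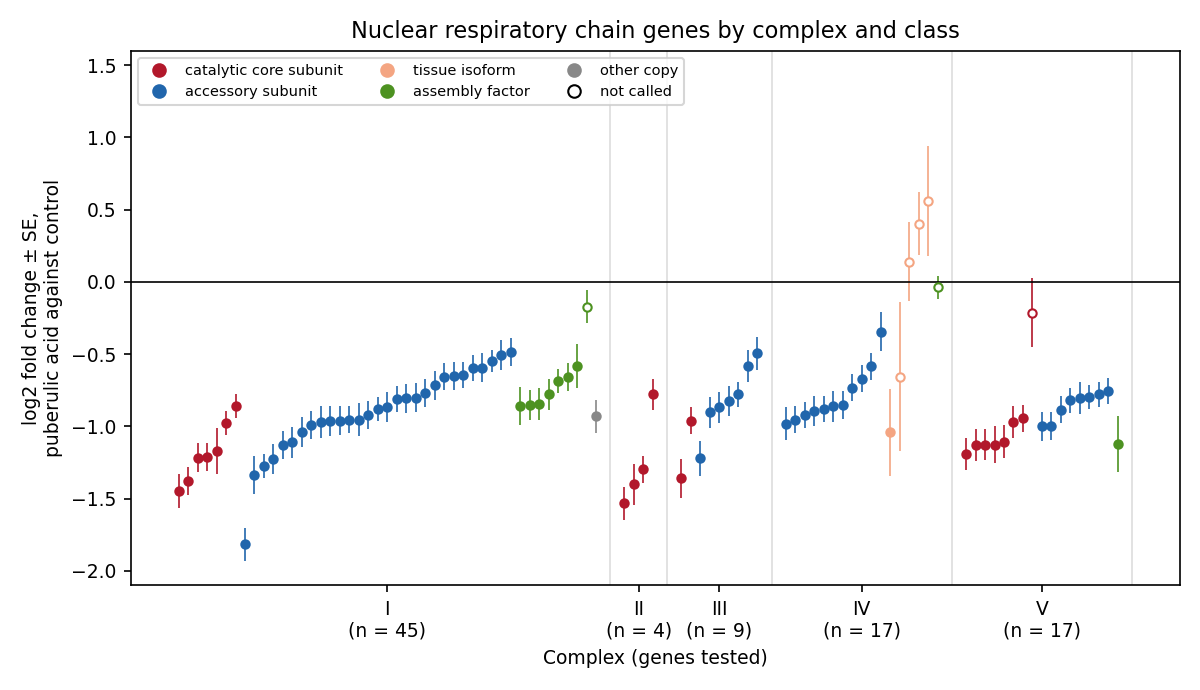
Log2 fold change (vertical axis, with its standard error) of the 92 genes tested, arranged by complex along the horizontal axis and coloured by class, with filled points called and open points not. The 85 filled points lie below 0 with TMM scaling, and the open points are Ndufaf5, Cox7a2l, Cox4i2, Ndufa4l2, Cox6b2, Cox6a2 and Atp5g2.

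Promoters are shown for 4 members because nuclear respiratory genes share binding sites for a few transcription factors. They were chosen after the values were seen, for the sites they hold or lack and for the size of the fold change. Each line gives the 250 bases before the start of transcription, 5′ to 3′ on the strand of the gene, from RefSeq on GRCm38.p6 (the expression values were made on GRCm39), and capitals mark matches to the motifs named next.
Sdhb, chr4:140961021-140961270, plus strand, log2 fold change -1.53: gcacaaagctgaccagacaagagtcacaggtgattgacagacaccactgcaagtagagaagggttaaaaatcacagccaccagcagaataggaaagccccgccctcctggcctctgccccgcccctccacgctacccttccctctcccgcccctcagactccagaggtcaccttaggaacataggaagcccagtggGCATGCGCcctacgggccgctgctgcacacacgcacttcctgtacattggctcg
Atp5l, chr9:44920743-44920992, minus strand, log2 fold change -0.996: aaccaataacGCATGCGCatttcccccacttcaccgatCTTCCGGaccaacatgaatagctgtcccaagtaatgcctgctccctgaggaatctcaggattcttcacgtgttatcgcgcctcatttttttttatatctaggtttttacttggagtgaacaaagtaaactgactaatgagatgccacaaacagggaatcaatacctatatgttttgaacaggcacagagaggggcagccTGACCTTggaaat
Cox6a1, chr5:115348959-115349208, minus strand, log2 fold change -0.89: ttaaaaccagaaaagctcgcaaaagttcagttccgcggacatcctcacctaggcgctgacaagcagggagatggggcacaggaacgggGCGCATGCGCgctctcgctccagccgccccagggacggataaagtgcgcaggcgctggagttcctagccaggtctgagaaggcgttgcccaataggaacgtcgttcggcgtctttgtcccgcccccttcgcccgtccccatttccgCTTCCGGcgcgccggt
Cox7a2l, chr17:83514334-83514583, minus strand, log2 fold change -0.04: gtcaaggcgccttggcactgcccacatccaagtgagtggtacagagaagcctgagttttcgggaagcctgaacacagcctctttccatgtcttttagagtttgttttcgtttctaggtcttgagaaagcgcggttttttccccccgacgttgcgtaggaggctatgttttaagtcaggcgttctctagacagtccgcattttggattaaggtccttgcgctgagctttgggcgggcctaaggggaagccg
The Sdhb stretch holds 1 match to the NRF1 motif GCGCATGC, on the opposite strand and starting 54 bases before the start of transcription. In Cox6a1, 2 overlapping NRF1 matches on opposite strands form 1 run of capitals, and an ETS match (CCGGAAG, the core bound by GABPA) lies 16 bases before the start. Atp5l holds an NRF1, an ETS and an ERR match (AAGGTCA, bound by oestrogen-related receptors). No motif of the 4 searched lies in the Cox7a2l stretch. Matches and fold changes did not go together in all members: the window of Ndufv3, with a log2 fold change of -1.82, held none of the 4 motifs, and that of Ndufaf5, at -0.17 and not called, held overlapping NRF1 matches after the start.

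RefSeq windows of 300 bases, from 250 before to 50 after the start, were found for 75 of the 99 members. These 80 windows were set beside all 32851 windows of the table, and both strands were searched. NRF1 matches lay in 15.0% of member windows and in 2.71% of all windows. ETS matches lay in 22.5% and 8.86%, ERR matches in 10.0% and 4.72%, and matches to the YY1 motif AAGATGG in 15.0% and 6.34%. Member windows had a GC content of 58.0%, against 52.7% in all windows. The median log2 fold change was -0.84 in the 12 tested members with an NRF1 match and -0.87 in the 61 without one. It was -0.84 and -0.88 for the ETS motif, -0.94 and -0.86 for ERR, and -0.83 and -0.87 for YY1. For any of the 4 motifs it was -0.82 in the 39 members with a match and -0.93 in the 34 without, the widest gap of the 5, given without a test.

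Complex I, the NADH dehydrogenase, had 47 members. Of the 45 tested 44 fell, with a median log2 fold change of -0.87 (with total-count scaling 32 lower and 1 higher, median -0.36). The 7 nuclear core subunits, which hold flavin mononucleotide, the iron-sulphur clusters and the quinone site, all fell (median -1.21), as did the 29 accessory subunits (median -0.88). Ndufv1 (ENSMUSG00000037916) binds NADH and flavin and is the entry point of electrons. Its level was 293.7, 377.6, 389.1, 400.3 and 382.1 CPM in control replicates 1 to 5 and 171.0, 123.6, 131.4, 129.0 and 121.1 CPM with puberulic acid. No treated kidney reached the lowest control, and the log2 fold change was -1.45 ± 0.12 (SE, edgeR adjusted p = 9.14e-07). Ndufs1 (ENSMUSG00000025968), the largest iron-sulphur subunit, had 270.9, 266.0, 247.5, 205.4 and 218.0 CPM in controls and 158.0, 96.78, 88.11, 99.18 and 94.15 CPM in treated kidneys. Treated replicate 1 stood above the other 4, yet below every control, and the log2 fold change was -1.17 ± 0.16 (SE, edgeR adjusted p = 4.67e-05).

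The extremes among complex I subunits were both accessory. Ndufv3 (ENSMUSG00000024038), which sits beside the NADH-oxidizing module, had 153.6, 227.9, 226.3, 192.0 and 187.6 CPM in controls and 61.20, 54.48, 60.15, 52.60 and 51.77 CPM with puberulic acid. That left 28.4% of the control level (log2 fold change -1.82 ± 0.12 SE, edgeR adjusted p = 1.22e-07). At the other end Ndufa5 (ENSMUSG00000023089), a subunit of the peripheral arm, had a mean of 121.3 ± 15.1 CPM in controls and 86.6 ± 5.5 CPM in treated kidneys (SD, n = 5). Its groups did not overlap and its log2 fold change was -0.49 ± 0.10 (SE, edgeR adjusted p = 0.000723), but with total-count scaling it was 0.02 and not called. Ndufb4 and Ndufb4c fell by nearly equal amounts, -0.92 and -0.93, from control means of 119.2 and 116.7 CPM. The symbols mark related copies, between which the counting could have split reads. This was not tested, and the value of each is uncertain. Ndufa11b was at 0 in all controls and Ndufs6b in all libraries, where a count of 0 allows up to 3 counts, or 0.0964 to 0.195 CPM, and neither was tested.

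The 8 complex I assembly factors of the Ndufaf family had a median of -0.73, and 7 fell (with total-count scaling 4 lower and 1 higher, median -0.22). Ndufaf7, a mitochondrial methyltransferase, was lowest at -0.86 ± 0.13 (SE, edgeR adjusted p = 0.000122). Ndufaf5 (ENSMUSG00000027384), a hydroxylase of Ndufs7, was the one not called. It had 15.75, 16.56, 15.91, 12.59 and 14.81 CPM in controls and 13.21, 11.50, 15.16, 14.06 and 13.24 CPM with puberulic acid. The groups overlapped (log2 fold change -0.17 ± 0.11 SE, edgeR adjusted p = 0.198), and with total-count scaling it was 0.34 (edgeR adjusted p = 0.0181).

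Complex II, succinate dehydrogenase, also works in the tricarboxylic acid cycle. All 4 of its genes fell, with a median of -1.35, or 39.3% of the control level. Sdha (ENSMUSG00000021577), the flavoprotein that oxidizes succinate, had 710.2, 874.7, 745.3, 738.3 and 761.6 CPM in controls and 409.7, 243.9, 277.2, 246.4 and 273.8 CPM with puberulic acid. Treated replicate 1 stood apart from the other 4 but below all controls, and the log2 fold change was -1.40 ± 0.14 (SE, edgeR adjusted p = 4.57e-06). Sdhb (ENSMUSG00000009863), the iron-sulphur subunit, whose promoter is printed above, had 424.8, 458.5, 478.6, 489.5 and 486.0 CPM in controls and 206.7, 137.6, 166.0, 147.8 and 149.8 CPM in treated kidneys. It was the lowest of the complex (log2 fold change -1.53 ± 0.11 SE, edgeR adjusted p = 3.8e-07). The membrane anchors Sdhc and Sdhd, which bind ubiquinone, stood at -1.30 and -0.78. Sdhd was the least reduced, from 295.1 ± 24.9 to 172.0 ± 24.9 CPM (SD, n = 5), with no overlap.

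Complex III, the cytochrome bc1 complex, had 9 members and all 9 fell (median -0.87). Cyc1 (ENSMUSG00000022551), the haem-bearing cytochrome c1, had 336.5, 456.9, 459.5, 467.2 and 423.3 CPM in controls and 221.4, 144.7, 159.5, 151.2 and 159.5 CPM in treated kidneys. It was the lowest of the complex, with no overlap and treated replicate 1 highest (log2 fold change -1.36 ± 0.14 SE, edgeR adjusted p = 3.62e-06). The Rieske iron-sulphur protein Uqcrfs1 (ENSMUSG00000038462) had a control range of 430.1 to 524.3 CPM with a median of 469.1 CPM. In treated kidneys it ran from 219.2 to 279.7 CPM (log2 fold change -0.96 ± 0.09 SE, edgeR adjusted p = 2.51e-06). The 7 accessory subunits had a median of -0.82, from Uqcr11 at -1.22 to Uqcr10 at -0.50. Both are small membrane-spanning subunits, and Uqcr10 went from 237.2 ± 38.2 to 168.3 ± 15.4 CPM (SD, n = 5) without overlap. With total-count scaling Uqcr10 was 0.01 and not called.

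Complex IV, cytochrome c oxidase, had 21 members, of which 17 were tested and 12 fell (median -0.73); with total-count scaling 8 were lower and 3 higher. Its catalytic subunits are mitochondrially encoded, so that the nuclear members here are 11 accessory subunits, 8 tissue isoforms, 1 assembly factor and Cox6c2, a further copy. All 11 accessory subunits of general use fell, with a median of -0.86. Cox4i1 (ENSMUSG00000031818), the largest nuclear subunit and a site of ATP regulation, had 754.7, 1023, 1050, 1054 and 1078 CPM in controls. With puberulic acid it had 560.6, 555.4, 561.8, 560.4 and 493.5 CPM, close together in 4 kidneys (log2 fold change -0.86 ± 0.11 SE, edgeR adjusted p = 2.11e-05). Cox5a, which binds thyroid hormone, fell by 0.67 ± 0.09 (SE, edgeR adjusted p = 5.24e-05) from 284.7 to 179.0 CPM, and with total-count scaling it was not called (-0.16). Ndufa4, first assigned to complex I and now to complex IV, had 499.9 ± 50.4 CPM in controls and 258.2 ± 18.1 CPM in treated kidneys (SD, n = 5), with a log2 fold change of -0.95. The least reduced was Cox7c, at 376.4 ± 78.0 CPM in controls and 296.6 ± 24.6 CPM in treated kidneys (SD, n = 5). Its groups overlapped and its log2 fold change was -0.34 ± 0.13 (SE, edgeR adjusted p = 0.0402). Without control replicate 2, control replicate 3 or puberulic acid replicate 5 it was not called, with an adjusted p from 0.0659 to 0.0975, and with total-count scaling its sign turned (0.16, not called).

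Cox7a2l (ENSMUSG00000024248) encodes SCAF1, which joins complex III to complex IV in supercomplexes. It had 145.3, 166.2, 174.2, 182.9 and 167.7 CPM in controls and 156.2, 166.9, 171.7, 168.4 and 151.3 CPM with puberulic acid. The groups overlapped over most of their range, and treated kidneys were at 97.4% of control (log2 fold change -0.04 ± 0.08 SE, edgeR adjusted p = 0.692). Its share of all counts was 0.0140% ± 0.0013 in controls and 0.0194% ± 0.0007 with puberulic acid (SD, n = 5), and with total-count scaling the log2 fold change was 0.47 (edgeR adjusted p = 0.000248). As background, C57BL/6J mice carry a shortened form of this protein.

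Complex V, ATP synthase, had 18 members, and 16 of the 17 tested fell (median -0.97). Its core here is the catalytic head, the central stalk and the c-ring, with 7 of 8 genes lower and a median of -1.12. Atp5b (ENSMUSG00000025393), the catalytic beta subunit, had 2923, 3109, 3956, 3642 and 3699 CPM in controls and 1758, 1435, 1539, 1447 and 1400 CPM with puberulic acid. It fell most of the subunits, to 43.7% of control (log2 fold change -1.19 ± 0.11 SE, edgeR adjusted p = 2.35e-06). Atp5a1 (ENSMUSG00000025428), the alpha subunit, had 1958, 2352, 2266, 2263 and 2287 CPM in controls and 1381, 917.8, 964.3, 889.9 and 944.0 CPM in treated kidneys. Replicate 1 of each group stood nearest to the other group, without overlap (log2 fold change -1.13 ± 0.13 SE, edgeR adjusted p = 1.12e-05).

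The c-ring, which turns with the passing protons, is encoded by 3 genes with the same mature protein. Atp5g1 and Atp5g3 fell by similar amounts, at -1.11 and -1.13. Atp5g2 (ENSMUSG00000062683) had only 37 to 100 counts per library, or 2.111 to 5.219 CPM in controls and 2.897 to 4.236 CPM with puberulic acid. It was not called (log2 fold change -0.21 ± 0.24 SE, edgeR adjusted p = 0.453), and its sign turned with total-count scaling (0.29). The 8 tested accessory subunits of the stator and membrane part, such as Atp5o (ENSMUSG00000022956) at -0.88, had a median of -0.81. A further row with the symbol Atp5o (ENSMUSG00000116933) was near 0 and not tested. Atp5s, coupling factor B, counted here with the assembly factors, fell from 16.8 ± 2.5 to 7.73 ± 2.38 CPM (SD, n = 5; log2 fold change -1.12 ± 0.20 SE, edgeR adjusted p = 0.000305). The ATPase inhibitor Atpif1 and the subunit gene Usmg5 lie outside the rule by symbol. They stood at -0.72 and -0.70, both called lower without overlap.

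**Figure D2:**
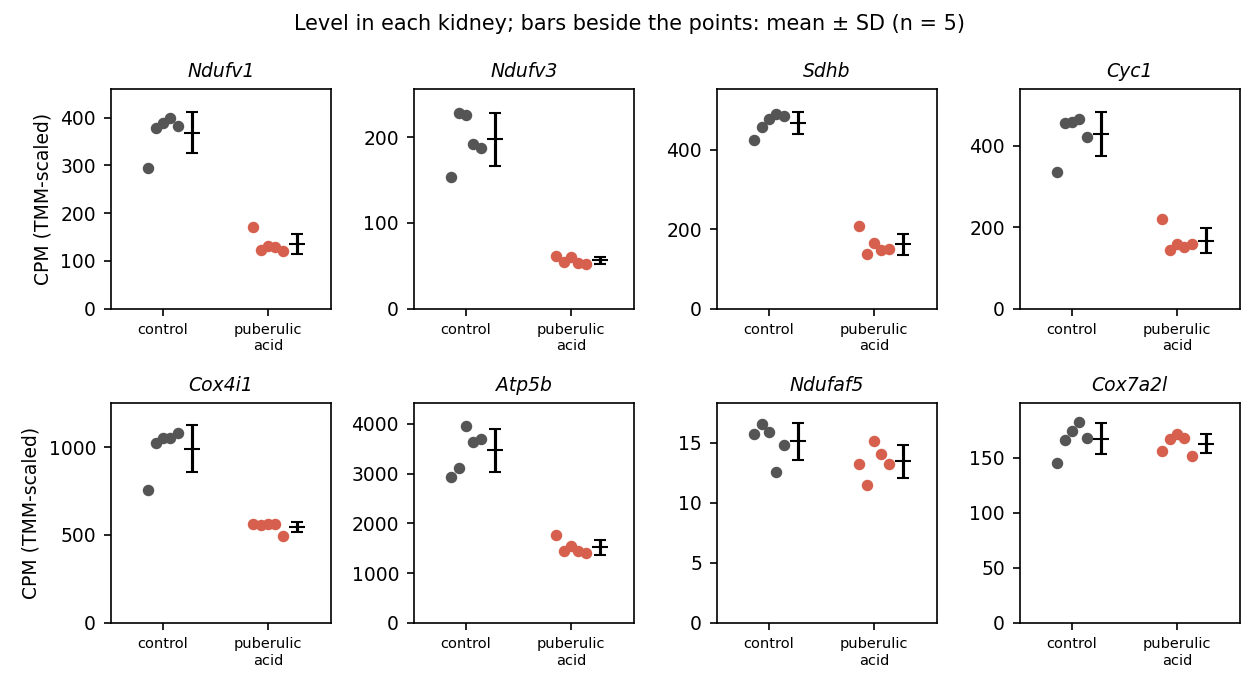
CPM (vertical axes, from 0) of single genes in each of the 5 control and 5 puberulic acid kidneys, with bars for the mean and SD. Sdhb, at 424.8 to 489.5 CPM in controls and 137.6 to 206.7 CPM in treated kidneys, shows groups that are apart, and Cox7a2l shows groups that overlap.

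Across complexes, the 21 tested core subunits had a median of -1.13, with 20 lower, and the 55 tested accessory subunits had a median of -0.86, with 55 lower. Classes were assigned by hand, and Cox7a2l, which stays in supercomplexes, was put with the assembly factors because it joins complexes. The 10 assembly factors had a median of -0.73, with 8 lower, from Atp5s at -1.12 to Cox7a2l at -0.04. With total-count scaling 20 core subunits, 41 accessory subunits and 5 assembly factors were lower, and 2 assembly factors were higher. By complex that scaling left 32 lower in complex I, 4 in II, 7 in III, 8 in IV and 16 in V. All subunits together lay 0.16 below the assembly factors in median log2 fold change, a difference that stayed between -0.23 and -0.13 when single kidneys were left out. Members of a class share kidneys and are not replicates, so these medians are descriptions without a test. In shares of all counts, core subunits went from 1.12% ± 0.098 to 0.711% ± 0.082 and accessory subunits from 1.31% ± 0.122 to 1.03% ± 0.044 (SD, n = 5). Assembly factors went from 0.0352% ± 0.0018 to 0.0376% ± 0.0009 (SD, n = 5), and Cox7a2l alone carried the higher sum, from 0.0140% to 0.0194%. The 8 complex I assembly factors went from 0.0198% ± 0.0013 to 0.0173% ± 0.0003 (SD, n = 5), and Atp5s was at 0.652 times its control share.

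The order of the kidneys also differed between the core subunits and the 10 assembly factors of the symbol rule. Relative to the mean of the controls, the median log2 level of the core subunits was -0.21, 0.04, 0.09, 0.06 and 0.04 in control replicates 1 to 5. With puberulic acid it was -0.90, -1.26, -1.16, -1.18 and -1.26, with replicate 1 nearest to the controls. For the assembly factors the treated values were -0.77, -0.65, -0.62, -0.63 and -0.74, with replicate 1 lowest. Puberulic acid replicate 1 was the highest treated kidney for 19 of 21 core subunits, 32 of 55 accessory subunits and 1 of 10 assembly factors, beside 5233 of all 16266 genes tested. The further assembly factors listed below did not share this order. In their summed CPM replicate 1 was the highest treated kidney for complexes I, III, IV and V, and replicate 5 for complex II. Without replicate 1 the core median was -1.26 and the median of the 10 assembly factors -0.77.

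**Figure D3:**
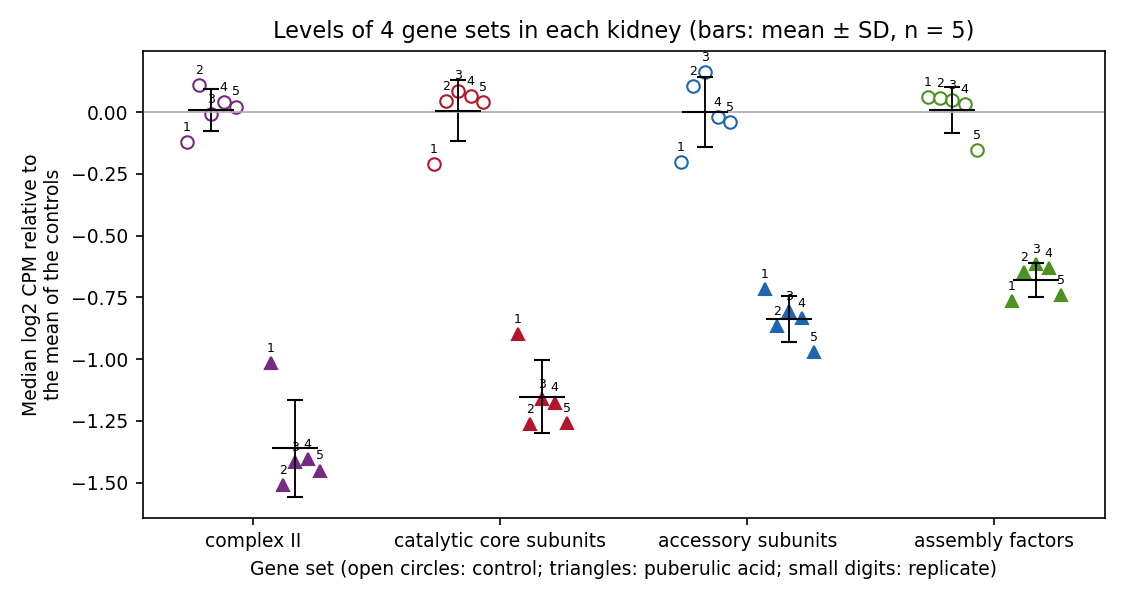
Median log2 CPM relative to the control mean (vertical axis) of complex II, core subunits, accessory subunits and assembly factors in each kidney; open circles are controls, triangles are puberulic acid, digits are replicate numbers and bars are the mean and SD. Treated replicate 1 is the highest triangle for core subunits (-0.90) and the lowest for the assembly factors of the symbol rule (-0.77).

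Several complex IV subunits have isoforms that are used in particular tissues or conditions. Of the 8 such genes 5 were tested, and 1 was lower. Cox7a1, the heart and muscle form of Cox7a2, had 8.27, 14.55, 14.06, 10.34 and 10.19 CPM in controls and 9.47, 4.05, 7.03, 2.85 and 4.499 CPM with puberulic acid. The groups overlapped through treated replicate 1 (log2 fold change -1.04 ± 0.30 SE, edgeR adjusted p = 0.00893), and with total-count scaling it was not called (-0.54). The other 4 tested isoforms were not called: Cox4i2 at -0.66, Cox6a2 at 0.56, Cox6b2 at 0.40 and Ndufa4l2 at 0.14. Leaving out single kidneys moved them between -1.21 and -0.46, 0.29 and 0.79, 0.28 and 0.57, and -0.016 and 0.30, in that order, and without control replicate 5 Cox6b2 was called higher. With total-count scaling Cox6a2 and Cox6b2 were called higher, at 1.07 and 0.91.

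Ratios of an isoform to its usual partner do not depend on library scaling. They were compared as log2 ratios with exact two-sided permutation tests (smallest possible p = 0.00794) for the 5 pairs with enough counts of 7 pairs listed, adjusted over the 5. Cox6b2, the testis form, had 9.63, 9.65, 11.9, 7.65 and 15.8 counts per 1000 counts of Cox6b1 in controls and 18.8, 27.4, 27.6, 25.2 and 22 in treated kidneys. The log2 ratio was 1.17 higher in treated kidneys, in 5 of 5 above every control (exact permutation p = 0.00794, adjusted 0.0198). Cox6a2, the heart and muscle form, had 0.616, 1.93, 2.51, 1.79 and 3.36 counts per 1000 counts of Cox6a1 in controls and 5.82, 5.81, 6.56, 3.82 and 6.78 in treated kidneys. Its log2 ratio was 1.64 higher, again in 5 of 5 above every control (exact permutation p = 0.00794, adjusted 0.0198), from 6 to 37 counts of Cox6a2 per control library. In both pairs the usual partner fell (Cox6b1 -0.73, Cox6a1 -0.89) while the isoform's own level was not called.

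For Ndufa4l2, the paralogue induced by hypoxia, the log2 ratio to Ndufa4 was 1.04 higher (exact permutation p = 0.0238, adjusted 0.0397), in 4 of 5 treated kidneys above every control. Leaving out any of 7 kidneys took the adjusted exact permutation p to between 0.0529 and 0.0794. In this pair too the usual partner fell (Ndufa4 -0.95), while the level of Ndufa4l2 itself was not called (0.14). The ratio of Cox4i2, the lung form, to Cox4i1 differed by -0.07 (exact permutation p = 0.833, adjusted 0.833) and that of Cox7a1 to Cox7a2 by -0.21 (exact permutation p = 0.524, adjusted 0.655). Markers of cells in which such isoforms occur were counted as well. The summed CPM of 10 pericyte and smooth muscle markers was 168.5 to 276.8 in control kidneys and 314.7 to 820.9 in treated ones, with 3 lower and 3 higher. Most of the higher sum came from the contractile genes Acta2 (28.2 to 191.7 CPM) and Tagln (28.7 to 266.0 CPM). The pericyte marker Pdgfrb also rose (26.5 to 56.5 CPM), while Rgs5, Kcnj8 and Abcc9 fell. Shares of 3 in 10 in each direction are near the 31.1% and 34.2% of all genes. For 6 skeletal muscle markers it was 0.316 to 1.62 and 0.578 to 1.65 CPM, with 2 of the 6 at 0 in all controls, and the 1 gene tested was not called. The part of these cells in the ratios was not tested.

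**Figure D4:**
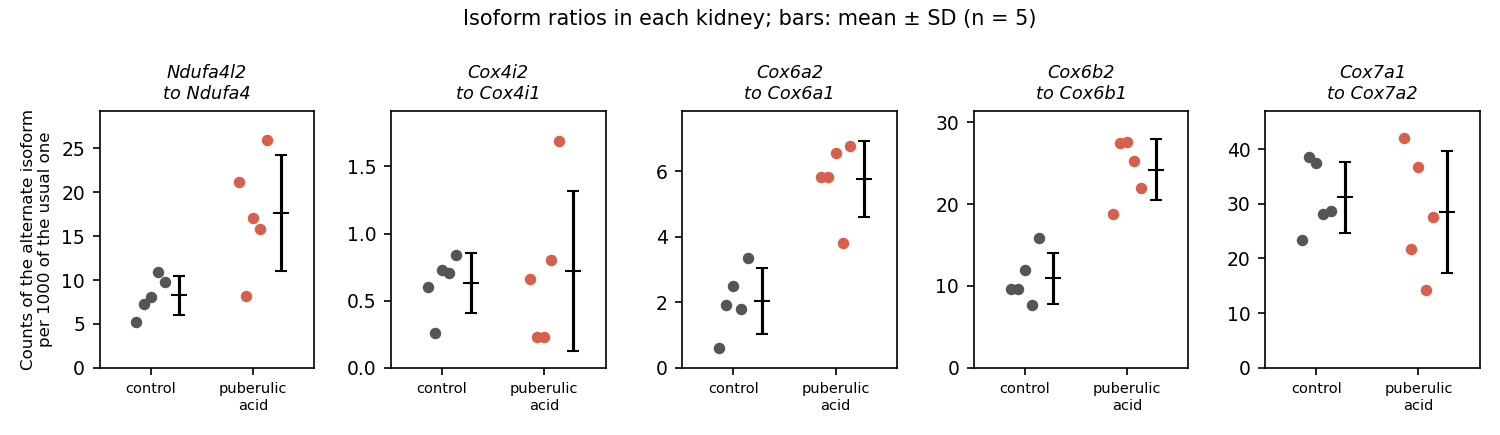
Counts of the isoform per 1000 counts of its usual partner (vertical axes, from 0) in each kidney for the 5 pairs tested, with bars for the mean and SD. The treated kidneys lie above all controls for Cox6a2 to Cox6a1 and Cox6b2 to Cox6b1, and the groups overlap for the other 3 pairs.

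Cox8b, the heart, muscle and brown fat form of Cox8a, was high in 1 library. It had 3, 2, 2, 0 and 1 counts in controls and 4, 1, 324, 9 and 0 with puberulic acid, which put replicate 3 at 13.7 CPM. It did not pass the filter on low counts. The summed CPM of 6 brown fat markers was 111.4 in the same library, at most 2.45 in the other treated kidneys and at most 0.738 in controls. Ucp1, the uncoupling protein of brown fat, had 1084 counts there and at most 18 in any other library. Without this library the median of the members was -0.89 and 85 were lower. Cox7b2 and Cox8c were at 0 in all 10 libraries, and Cox6c2 had a mean of 0.0114 CPM in controls and was at 0 in treated kidneys.

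**Figure D5:**
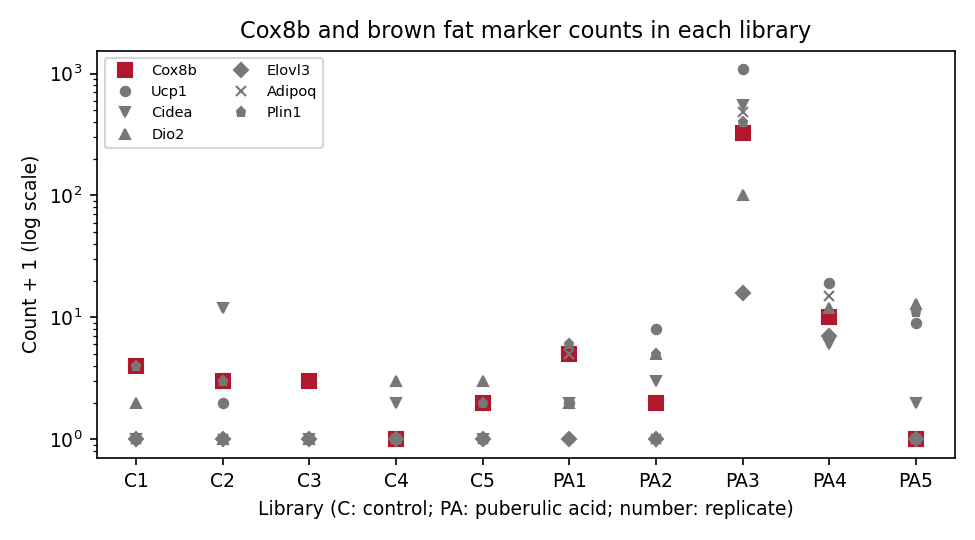
Counts plus 1 (vertical axis, log scale) of Cox8b (squares) and 6 brown fat markers (grey symbols) in each library (horizontal axis; C, control; PA, puberulic acid). Puberulic acid replicate 3, with 324 counts of Cox8b and 1084 of Ucp1, stands above the other 9 libraries.

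Genes that serve the chain from outside the symbol rule were counted from lists. Of 49 further assembly factors 48 were tested, 39 fell and 1 rose (median -0.66), and with total-count scaling 18 were lower and 7 higher (median -0.16). By complex, 12 of 12 fell for complex I, 3 of 4 for II, 4 of 6 for III, 15 of 21 for IV and 5 of 5 for V. Acad9, which builds the membrane arm of complex I, stood at -2.04 and Coa6, a copper-handling factor of complex IV, at -2.06. Uqcc2, a factor for cytochrome b of complex III, was the one that rose (0.52 ± 0.12 SE, edgeR adjusted p = 0.00293). These 3 were singled out after their values were seen. All 14 genes of electron carriers and coenzyme Q synthesis fell (median -1.05), and with total-count scaling 9 were lower and 1 higher (median -0.54). Among them cytochrome c (Cycs) had 449.2, 364.8, 396.3, 320.6 and 311.4 CPM in controls and 239.3, 239.7, 272.1, 273.9 and 227.1 CPM with puberulic acid (log2 fold change -0.56; -0.05 with total counts, not called).

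The 13 mitochondrially encoded subunits all fell, with a median of -1.30, and with total-count scaling 11 were lower (median -0.80). The 7 of complex I had a median of -1.34, mt-Cytb of complex III stood at -1.31, the 3 of complex IV had a median of -1.22 and the 2 of complex V of -1.25. The share of all counts held by genes whose symbol begins with mt-, a set wider than these subunits, went from 20.3% ± 1.41 to 13.0% ± 1.38 (SD, n = 5). Poly(A) selection captures these transcripts unevenly, and their values are given beside the nuclear ones without a test between them.

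Among 14 transcriptional regulators of these genes 7 fell, 4 rose and 3 were not called (median -0.39). With total-count scaling 3 were lower and 6 higher (median 0.12), beside the shift of all genes under that scaling given above and, with TMM, 31.1% of all genes lower and 34.2% higher. The coactivator PGC-1alpha (Ppargc1a) had 75.27, 56.10, 56.64, 56.83 and 51.17 CPM in controls and 48.92, 19.21, 21.39, 15.89 and 24.49 CPM with puberulic acid. Treated replicate 1 lay just below the lowest control and well above the other 4 (log2 fold change -1.19 ± 0.27 SE, edgeR adjusted p = 0.00183). The nuclear receptor Esrra, which binds the ERR motif, fell from 147.5 ± 21.3 to 54.8 ± 11.0 CPM (SD, n = 5; log2 fold change -1.43 ± 0.14 SE, edgeR adjusted p = 3.92e-06). Its relative Esrrg, at -0.73, also fell, with overlapping groups, and was not called with total counts (-0.22). Pprc1, of the PGC-1 family and singled out after its values were seen, rose from 10.3 ± 3.2 to 37.5 ± 16.5 CPM (SD, n = 5; log2 fold change 1.86 ± 0.28 SE, edgeR adjusted p = 0.000105). Nrf1, which binds the NRF1 motif, rose from 11.2 ± 2.1 to 20.6 ± 1.9 CPM (SD, n = 5; log2 fold change 0.88 ± 0.13 SE, edgeR adjusted p = 0.000107). Gabpa, of the ETS family, rose by 0.34 (edgeR adjusted p = 0.00636), with overlap. Tfam, which packages mitochondrial DNA, stood at -0.27 and was not called (edgeR adjusted p = 0.111), and with total counts it was 0.24, also not called.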

How the data were processed

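Poly(A) RNA of whole kidney was measured by RNA sequencing with a directional kit, per the labels' protocols. The authors deposited estimated counts for each gene, with no normalization stated. The submitters' processing notes name fastp 0.22.0, FastQC 0.12.1, MultiQC 1.28, Salmon 1.10.3, DESeq2 and GRCm39, and the annotation release is not given in the sources used here. Symbols from GENCODE M21 matched 51344 of 55822 identifiers, with 99.29% of the counts. Of the 20 sample columns 10 were used, and 10 whose names do not show the supplement lot were not used in any step.

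Estimated counts were rounded, filtered with filterByExpr, scaled with TMM factors and tested with edgeR 4.0.16 (glmQLFit, glmQLFTest, robust off; limma 3.58.1, R 4.3.3) over 5 control and 5 puberulic acid samples. Standard errors were derived from the log2 fold change and the F statistic. Isoform ratios are log2 of counts plus 0.5, with exact permutation tests. Scripts were tested on simulated data. The floor of 3 counts covers counting error only. Standard errors come from the fit over 5 kidneys per group and SDs from those kidneys, so both include variation between mice. The labels do not say more than that samples are separate mice, and no 2 libraries were identical (lowest chi-square per degree of freedom within a group 12.7).

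Members, classes, lists and the rule for named genes were chosen with earlier results of these data known. Named were the lowest and highest subunit of each complex, members not called or not tested, isoform pairs and a fixed list of core subunits, assembly factors and regulators; others named were chosen after their values were seen. Alternatives were DESeq2 1.42.0, a robust fit, scaling by RLE, upper quartile or total counts, a filter of 1 CPM in 5 samples or none, removal of mitochondrially encoded and the 10 most abundant other genes, a replicate block, a pseudocount of 1 for the ratios and removal of each kidney. Total counts without mitochondrial and top genes was added after seeing the data.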

Additional observations from a re-analysis of the deposited data

Results flagged for a closer look

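Within groups of 5, a value was picked out when its gap to the nearest other kidney exceeded 0.71 of the group's range (Dixon's test). Of 90 groups searched 18 held such a value. For independent groups chance would give about 1 in 20, or 4.5. The groups here share kidneys, and some medians contain the listed genes, so no excess over chance can be read from these counts. Puberulic acid replicate 1 stood above the other treated kidneys for Atp5a1 (1381 CPM), Cyc1 (221.4 CPM), Ndufs1 (158.0 CPM), Ndufv1 (171.0 CPM) and Sdha (409.7 CPM). It also stood above them in the median log2 level relative to controls of complex II (-1.02), complex III (-0.67) and the core subunits (-0.90). Control replicate 1 stood below the other controls for Atp5a1 (1958 CPM), Cox4i1 (754.7 CPM), Cox6a1 (555.6 CPM), Ndufv1 (293.7 CPM) and the median level of the core subunits (-0.21).

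Puberulic acid replicate 5 was low for Cox4i1 (493.5 CPM), and control replicate 5 was low for the median level of the assembly factors (-0.16). Puberulic acid replicate 3 was high for Cox8b (13.72 CPM), the library that also held the brown fat markers. The log2 ratio of Cox4i2 to Cox4i1 was low in control replicate 2 (-11.78), where Cox4i2 had 5 counts. That of Cox6a2 to Cox6a1 was low in puberulic acid replicate 4 (-8.01) and still above every control.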

How the results depend on the processing

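The 85 members called lower were the same genes with RLE factors, DESeq2, the robust fit, the filter of 1 CPM and without mitochondrial and top genes; 84 of them were lower with upper-quartile factors or no filter, which lost Cox7c. Leaving out single kidneys gave 84 to 85 lower (Cox7c lost) and 0 to 1 higher (Cox6b2 at 0.57, without control replicate 5). No filter gave 1 higher, Cox8b, at 4.79 (edgeR adjusted p = 0.0202), from 1 library. Total counts, with total counts without mitochondrial and top genes in brackets, called 67 (77) members lower and 4 (3) higher, and 2526 (3106) of all genes lower; total counts called 9179 higher. Medians were -0.37 (-0.51) for all members, -0.36 (-0.50) for complex I, -0.84 (-0.99) for II, -0.36 (-0.51) for III, -0.22 (-0.37) for IV, -0.46 (-0.61) for V, -0.62 (-0.77) for core subunits, -0.35 (-0.50) for accessory subunits and -0.22 (-0.37) for assembly factors. These alternatives differ from TMM by a shift of all genes, and the members lay 0.92 below all genes in each. With upper-quartile factors the medians were -0.77 for complex I, -0.77 for accessory subunits and -0.64 for assembly factors.

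Signs turned with total counts for Atp5g2 (0.29; 0.15 with the added setting), Cox7a2l (0.47; 0.32), Ndufaf5 (0.34; 0.19), Cox7c (0.16; 0.022), Ndufa5 (0.021) and Uqcr10 (0.01), and with upper-quartile factors for Cox7a2l (0.058). Leaving out 1 kidney each, the complex IV median ran from -0.84 to -0.72, Ndufa4l2 from -0.016 to 0.30, and the log2 ratio differences from 0.88 to 1.29 for Ndufa4l2 to Ndufa4, -0.45 to 0.23 for Cox4i2 to Cox4i1 and -0.37 to 0.018 for Cox7a1 to Cox7a2. Same-numbered samples did not deviate together (correlations -0.172 to 0.039), and the main fit used no pairing by number. Such correlations cannot show whether same-numbered kidneys shared handling, which the labels do not give. With the replicate block 85 members stayed lower, and the ratios of Ndufa4l2, Cox6a2 and Cox6b2 (1.04, 1.64 and 1.17) had an adjusted exact permutation p of 0.104, where sign flips of 5 pairs cannot pass the threshold. Where no cause is named, the cause was not tested. Counts were low for Cox4i2 (3 to 26 per library), Cox6a2 (6 to 69) and Atp5g2 (37 to 100), which widens counting error.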
